A study of Mus musculus with 2 samples.

Results

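The hepatocyte lineage transcription factors examined here are Foxa1, Foxa2, Foxa3, Cebpa, Cebpb, Onecut1, Onecut2, Prox1 and Tbx3. They were chosen by name as liver-enriched DNA-binding regulators other than nuclear receptors, and all 9 were found by symbol among the 43280 gene symbols of the read counts. RNA-seq was performed on 1 library of mature hepatocytes (MHs) and 1 library of small hepatocytes (SHs) of C57BL6 mice. Both were freshly isolated from the liver by collagenase perfusion. The reporting summary of the study states that MHs and SHs under comparison came from the same mice. MHs came from the pellet of a slow spin and SHs from its supernatant by a faster spin, and per the methods dead cells were removed from both fractions with Percoll. MHs were left unsorted, whereas SHs, described as intrinsic hepatocyte progenitors, were sorted as cells positive for ICAM-1 and negative for CD31, CD45 and EpCAM. The labels give an age of 20 weeks for both samples, and the methods give a younger age for the mice of the study. Poly(A) RNA was sequenced on an Ion Proton. The methods name 3 mice, and they do not say whether their cells were pooled.

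FOXA proteins are forkhead factors that open chromatin at liver genes before other factors bind, and C/EBP proteins are basic leucine zipper factors that drive metabolic and acute-phase genes of hepatocytes. ONECUT proteins carry a cut domain and a homeodomain and act when hepatoblasts choose between hepatocyte and bile duct fates. PROX1 is a homeobox factor needed for hepatoblast migration, and TBX3 is a T-box repressor that keeps hepatoblasts proliferating and, in the adult liver, marks hepatocytes beside the central vein.

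Counted reads numbered 16979136 for MHs and 42356444 for SHs. Each count was divided by the total of its own library and multiplied by 1000000 (RPM). With 1 library per group, no test between MHs and SHs was possible. Log2 ratios of SHs over MHs are given with 95% Clopper-Pearson intervals of the counting error, and the spread between mice or preparations is unknown. The 5 hepatocyte markers Alb, Apoa1, Ttr, Serpina1a and Hnf4a summed to 68292 RPM in MHs and 72474 in SHs. Alb alone held 55706 RPM in MHs and 60855 in SHs. The median log2 ratio of the 5 markers was -0.05, with 3 under 0 (Apoa1, Ttr and Serpina1a) and 2 above 0 (Alb and Hnf4a).

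Lineage transcription factors bind one another's genes and the genes of plasma proteins, so stretches upstream of a regulator and of its textbook target are shown first. The 250 bases before the RefSeq start (build GRCm38.p6) were searched on both strands for a FOXA motif (TGTTTNC), a C/EBP motif (TTGCNNAA), an ONECUT motif (ATTGATT) and a T-box motif (GGTGTGA). Matches are in capitals, on the strand of the gene, and no 2 matches overlap. Foxa2 is shown because it was the only one of the 9 genes, where a stretch was at hand, with the ONECUT motif, Alb because it is the target with the most reads, and Cebpa because it had the highest level of the 9 genes. The stretches are chr2:148046970-148047219 on the minus strand for Foxa2, chr5:90460620-90460869 on the plus strand for Alb and chr7:35119043-35119292 on the plus strand for Cebpa.
Foxa2: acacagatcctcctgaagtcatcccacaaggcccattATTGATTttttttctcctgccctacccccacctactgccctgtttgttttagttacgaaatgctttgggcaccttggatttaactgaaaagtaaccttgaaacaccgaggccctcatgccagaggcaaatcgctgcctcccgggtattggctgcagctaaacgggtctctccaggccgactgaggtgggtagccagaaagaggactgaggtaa
Alb: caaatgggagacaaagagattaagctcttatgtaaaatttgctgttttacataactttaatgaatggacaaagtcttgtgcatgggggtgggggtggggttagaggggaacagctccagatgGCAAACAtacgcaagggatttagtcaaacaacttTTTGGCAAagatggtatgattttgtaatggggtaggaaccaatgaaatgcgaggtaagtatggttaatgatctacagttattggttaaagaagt
Cebpa: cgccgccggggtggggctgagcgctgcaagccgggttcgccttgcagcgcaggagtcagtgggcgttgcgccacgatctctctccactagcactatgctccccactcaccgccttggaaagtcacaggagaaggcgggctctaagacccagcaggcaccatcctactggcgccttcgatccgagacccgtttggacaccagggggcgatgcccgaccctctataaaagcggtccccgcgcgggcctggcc

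Upstream stretches were at hand for 7 of the 9 genes, with 10 stretches in all because Foxa2 has 3 starts and Prox1 has 2. The FOXA motif was in 2 of the 10 stretches, those of Foxa1 and of 1 start of Prox1, and in 17.8% of the 32851 stretches of all genes. The ONECUT motif was in 1 of the 10 and in 2.61% of all stretches. The C/EBP and T-box motifs were in 0 of the 10 and in 9.56% and 3.33% of all stretches. Of 12 stretches of 11 target genes, 7 held the FOXA motif and 3 held the C/EBP motif. A match is a run of letters and was not tested for binding.

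The 9 genes spanned a wide range of levels within each library. Levels between genes were compared as reads per 1000 bases of exon per 1000000 counted reads (RPKM), with a 95% Poisson interval of the counting error. In MHs, the order was Cebpa at 192.3 RPKM, Cebpb at 69.2, Foxa3 at 23.0, Foxa2 at 15.7, Prox1 at 8.40, Onecut1 at 5.50, Foxa1 at 3.03, Onecut2 at 2.32 and Tbx3 at 2.21. In SHs, the order was the same, with Cebpa at 221.9 RPKM, Cebpb at 55.5, Foxa3 at 20.9, Foxa2 at 15.5, Prox1 at 8.06, Onecut1 at 4.84, Foxa1 at 2.99, Onecut2 at 1.74 and Tbx3 at 0.602. The intervals of neighbours in this order did not overlap, except for Onecut2 and Tbx3 in MHs, whose levels were not told apart. Cebpa alone made up 59.8% of the summed RPKM of the 9 genes in MHs and 66.8% in SHs. The level of Cebpa was 87.2 times that of Tbx3 in MHs and 368.4 times in SHs. Among the 39469 symbols with an exon length, Cebpa ranked 426th by RPKM in MHs and 392nd in SHs, and Tbx3 ranked 7303rd and 11283rd. With the longest transcript in place of all exons, the level of Tbx3 in MHs was 2.93 RPKM and lay above that of Onecut2.

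**Figure D1:**
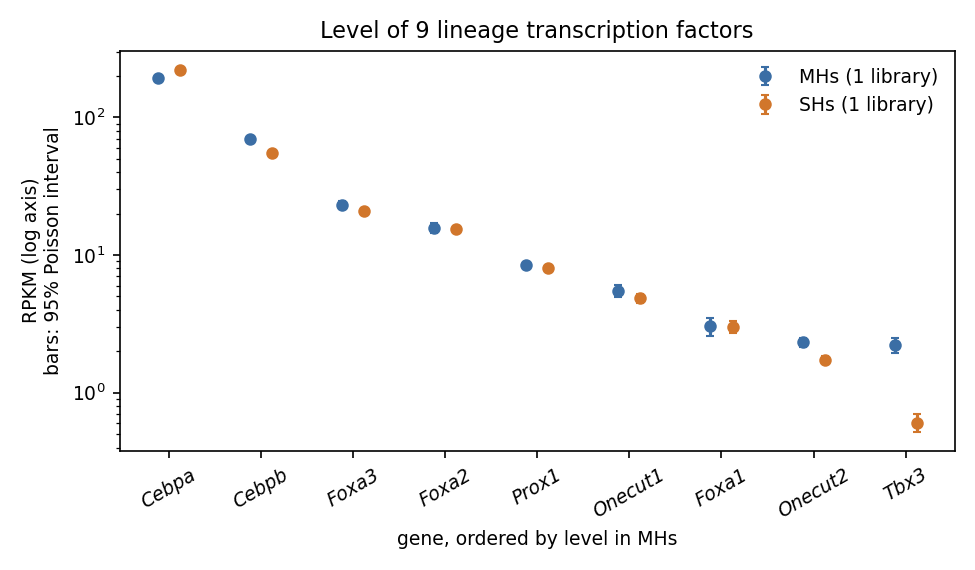
Level of the 9 lineage transcription factors in RPKM on a log axis, with blue points for the library of MHs, orange points for the library of SHs and bars for the 95% Poisson interval. The points of a gene lie close together for 8 genes, whereas Tbx3 drops from 2.21 RPKM in MHs to 0.602 in SHs.

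Tbx3 differed far more between the libraries than the other 8 genes did. Tbx3 (chromosome 5, 119670669 to 119684724 of mm10, plus strand) was counted 248 times in MHs but only 169 times in SHs, although more reads were counted there. Its level was 14.6 RPM in MHs against 3.99 RPM in SHs, so that the level in SHs was 0.273 times that in MHs (95% interval 0.223 to 0.333), a log2 ratio of -1.87 (-2.16 to -1.58). A gene counted as lower or higher when the ratio was at least 1.5-fold and its interval lay wholly on that side of 0. By this rule, 1 of the 9 genes, Tbx3, was lower in SHs, beside 6.20% of the 15521 genes with at least 10 reads. The number of the 9 genes that were higher was 0, beside 3.50% of all genes. All 9 genes had at least 400 reads, and among the 7894 genes with that many reads, 1.67% were lower and 1.14% higher. At a threshold of 2-fold, Tbx3 was still the only gene called, beside 4.46% of genes that were lower and 2.00% that were higher. The log2 ratio of Tbx3 was under that of all but 10 of the 7894 genes with at least 400 reads. In bulk samples, fewer cells of a type and less RNA per cell cannot be told apart.

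Set against each of the other lineage transcription factors, Tbx3 was lower, a comparison that does not depend on the library totals. This comparison uses the same reads of Tbx3 as the log2 ratio and is not independent of that ratio. Foxa1, the gene nearest to Tbx3 in reads, had 171 reads in MHs against 422 in SHs. The library of MHs thus held 1.45 reads of Tbx3 for each read of Foxa1, and the library of SHs 0.400. The odds ratio of these read ratios, SHs over MHs, was 0.277 (exact 95% interval 0.210 to 0.363). Against the other 7 genes, the odds ratio lay between 0.237 for Cebpa and 0.364 for Onecut2, and the highest upper limit was 0.455. Against Hnf4a, the nuclear receptor at the centre of the hepatocyte network, the odds ratio was 0.267 (0.218 to 0.326). Tbx3os1, annotated on the opposite strand across 697 bases of Tbx3, had 3 reads in MHs against 0 in SHs. Tbx2, the closest relative of Tbx3, had 4 reads in each library, Tbx5 had 0 in MHs and 2 in SHs, and Tbx4 had 0 in both. Cdkn2a, a cell cycle inhibitor known as a gene that TBX3 represses, had 0 reads in MHs against 2 in SHs, which is under the floor of 3 reads in both libraries.

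Markers of hepatocytes beside the central vein (ZONE3) moved in the direction of Tbx3. All 9 of 9 listed markers had reads in both libraries and were lower in SHs. Their summed level was 3098 RPM in MHs and 865.6 in SHs, and their median log2 ratio was -1.89, from -4.23 for Slc1a2 to -1.08 for Axin2. Glul, which encodes glutamine synthetase of the last pericentral cell layer, had a log2 ratio of -2.68 (-2.78 to -2.57), and Cyp2e1, a pericentral cytochrome P450, had one of -1.89 (-1.91 to -1.87). Of the genes that reached 400 reads, 10 lay under Tbx3, of which 4 were in this list, 1 was the endothelial marker Stab2 and 1 was the target Cyp7a1. The 8 markers of hepatocytes around the portal vein (ZONE1) were all above 0, with a median log2 ratio of 0.52. They ranged from 0.06 for Cyp2f2 to 1.29 for Aldh1b1, and their summed level was 8782 RPM in MHs and 11512 in SHs. Of the 8, only Aldh1b1 was higher by the 1.5-fold rule, beside 3.50% of all genes. All 9 ZONE3 markers were lower by this rule, beside 6.20% of all genes. The paper had already reported Glul, Cyp2e1, Cyp1a2, Axin2 and Lgr5 as lower in SHs by quantitative PCR. Since the list was chosen with earlier results known, its count is a description and no independent support. Markers of other cell types were lower in SHs as well. By the 1.5-fold rule these were 7 of 7 endothelial, 4 of 5 leukocyte and 4 of 5 stellate markers with at least 10 reads. Their summed levels in MHs and SHs were 62.3 and 4.18 RPM for the endothelial list, 10.5 and 0.826 RPM for the leukocyte list and 20.1 and 4.75 RPM for the stellate list. The part of the zone markers or of these cell types in the lower level of Tbx3 was not tested.

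**Figure D2:**
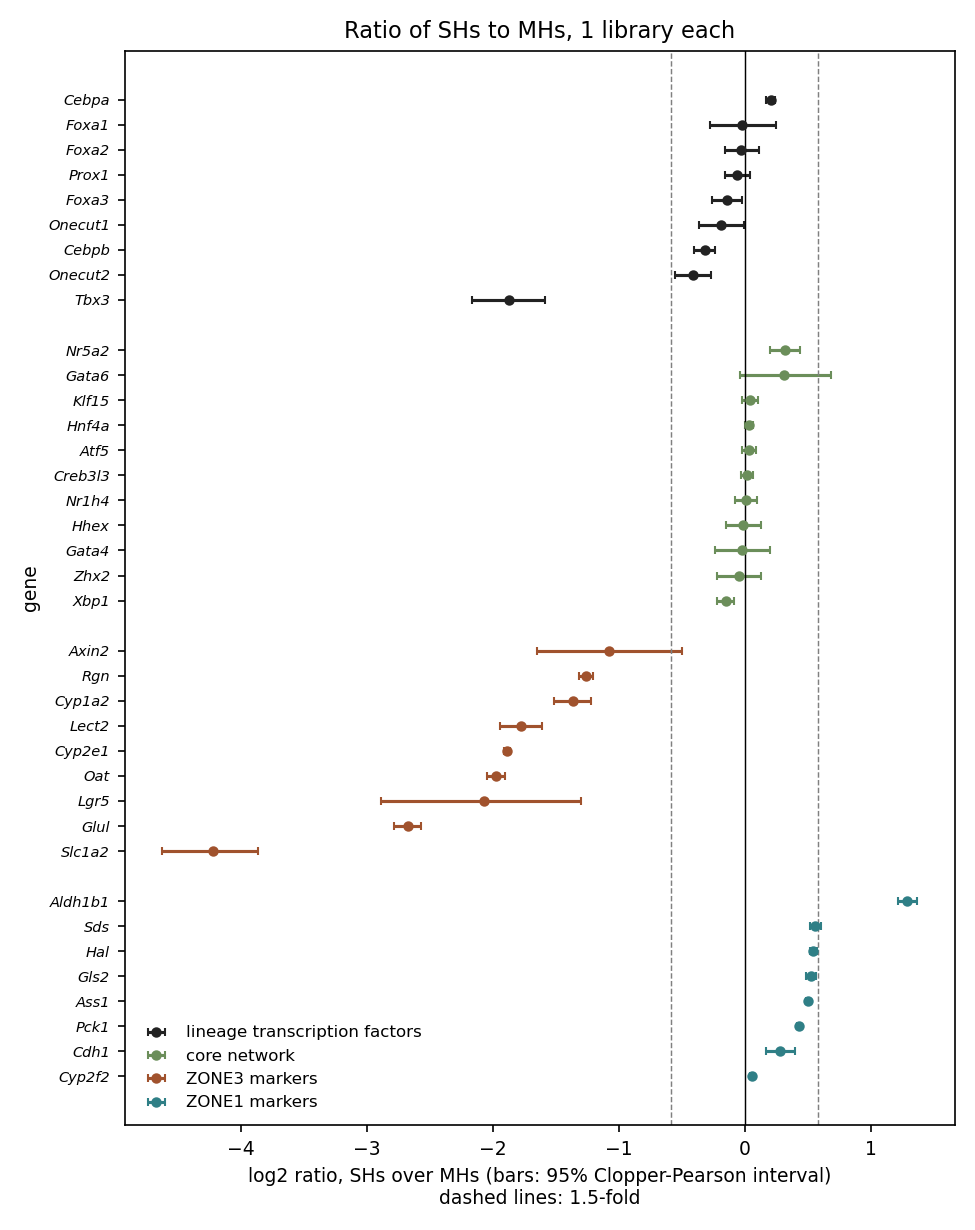
Log2 ratio of SHs over MHs on the horizontal axis for the lineage transcription factors, genes of the core network of other liver regulators and markers of ZONE3 and ZONE1, 1 gene per line, with bars for the 95% Clopper-Pearson interval and dashed lines at 1.5-fold. Tbx3, at -1.87, lies within the range of the ZONE3 markers, from -4.23 to -1.08, and the other 8 lineage transcription factors lie between -0.41 and 0.21.

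The C/EBP genes moved apart. Cebpa (chromosome 7, 35119293 to 35121928, plus strand), a driver of gluconeogenic and urea cycle genes that also restrains hepatocyte division, had 8606 reads in MHs against 24775 in SHs. The levels were 506.9 and 584.9 RPM, and the log2 ratio was 0.21 (0.17 to 0.24), or 1.15-fold more in SHs (1.13 to 1.18). Cebpb (chromosome 2, 167688915 to 167690418, plus strand), an inducible factor of the acute-phase response and of regeneration, had 1768 reads in MHs against 3537 in SHs. The levels were 104.1 and 83.5 RPM, and the log2 ratio was -0.32 (-0.40 to -0.24). Neither gene reached 1.5-fold. The library of MHs held 4.87 reads of Cebpa for each read of Cebpb and the library of SHs 7.0, an odds ratio, SHs over MHs, of 1.44 (exact 95% interval 1.35 to 1.53). Per exon length, Cebpa took 73.5% of the level of the pair in MHs and 80.0% in SHs.

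Cebpb is also transcribed in myeloid cells, and of the 5 leukocyte markers that reached 10 reads, 4 were lower in the sorted SHs. Cd68, the other marker, had 7 reads in MHs against 15 in SHs (log2 ratio -0.27, -1.60 to 1.32). All 6 markers of leukocytes had reads in MHs, with a sum of 178 reads or 10.5 RPM, whereas the sum in SHs was 35 reads or 0.826 RPM and Marco was at 0. The part of these markers in the ratio of Cebpb was not tested. Of the 8 immediate-early genes listed as signs of cell isolation, 7 reached 10 reads, with a median log2 ratio of 0.18. Fos, the partner of Jun in AP-1, was the only gene of this list at least 1.5-fold higher, at 0.61 (0.56 to 0.67). Tmem189, annotated on the opposite strand across 908 bases of Cebpb, had 103 reads in MHs against 184 in SHs. The reads of such overlapping genes are uncertain, since how strand was treated in the counting is not given in the sources used here. Of the relatives of the pair, Ddit3, a stress-induced C/EBP protein that blocks the others, had 222 reads in MHs against 369 in SHs (log2 ratio -0.59, -0.83 to -0.34). Cebpg had a log2 ratio of -0.02 (-0.19 to 0.14) and Cebpd one of -0.39 (-0.81 to 0.04). Cebpe, with 96 reads in MHs against 274 in SHs, had a log2 ratio of 0.19 (-0.15 to 0.55).

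The FOXA genes, pioneer factors of the liver, were close to equal in the libraries, and the signs of Foxa1 and Foxa2 changed with the scaling. Foxa1 (chromosome 12, 57540628 to 57546916, minus strand) had 10.1 RPM in MHs against 9.96 in SHs (log2 ratio -0.02, -0.28 to 0.25). Foxa2 (chromosome 2, 148042877 to 148046969, minus strand) had 633 reads in MHs against 1552 in SHs, which were 37.3 and 36.6 RPM. Its log2 ratio was -0.03 (-0.16 to 0.11), so that a difference of 1.5-fold lay outside the counting interval. Foxa3 (chromosome 7, 19013284 to 19023538, minus strand), the FOXA gene most abundant in adult hepatocytes, had 796 reads in MHs against 1800 in SHs. The levels were 46.9 and 42.5 RPM, and the log2 ratio was -0.14 (-0.26 to -0.02). The mixture of paralogs was similar as well. Per exon length, Foxa3 made up 55.1% of the family in MHs and 53.1% in SHs, Foxa2 37.7% and 39.3%, and Foxa1 7.25% and 7.62%. The odds ratio, SHs over MHs, was 1.01 for Foxa1 against Foxa2 (0.821 to 1.24), 1.09 for Foxa1 against Foxa3 (0.894 to 1.34) and 1.08 for Foxa2 against Foxa3 (0.955 to 1.23). Each of these intervals included 1.

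**Figure D3:**
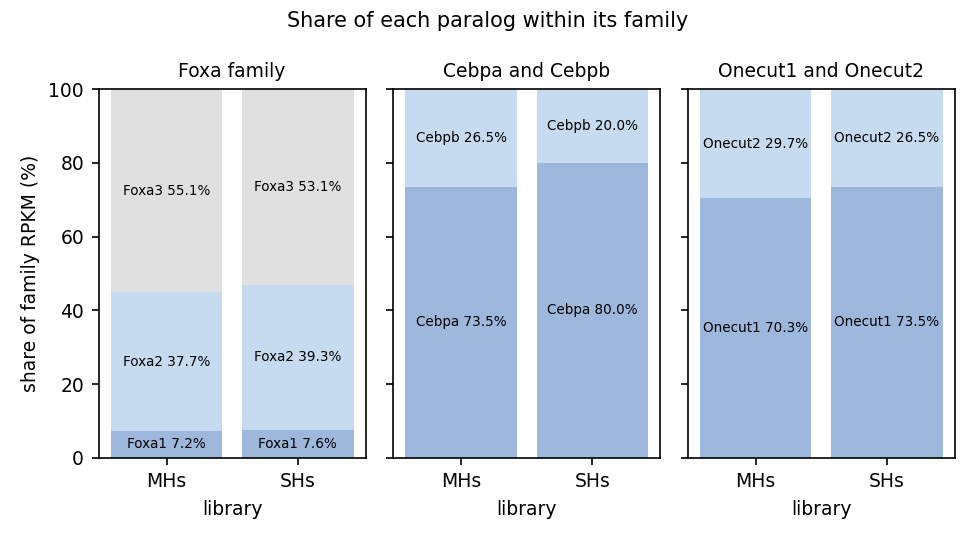
Share of each paralog, in percent of the summed RPKM of its family, for the FOXA genes, the pair Cebpa and Cebpb and the pair Onecut1 and Onecut2, with 1 bar for the library of MHs and 1 for the library of SHs. Cebpa rises from 73.5% to 80.0% of its pair, and the share of Foxa3 is 55.1% and 53.1%.

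Both ONECUT genes had log2 ratios under 0 that did not reach 1.5-fold. Onecut1 (chromosome 9, 74861921 to 74891781, plus strand), also called HNF6, had 384 reads in MHs against 843 in SHs. The levels were 22.6 and 19.9 RPM, and the log2 ratio was -0.19 (-0.36 to -0.0065), so that the interval ended close to 0. Onecut2 had 639 reads in MHs against 1198 in SHs, or 37.6 and 28.3 RPM, a log2 ratio of -0.41 (-0.55 to -0.27). After Tbx3, this was the lowest ratio of the 9 genes. Together, the pair had a log2 ratio of -0.32 (-0.43 to -0.21). Onecut2 held more of the reads, but its exons are 16234 bases long against 4113 for Onecut1. Per length, Onecut1 made up 70.3% of the pair in MHs and 73.5% in SHs. Onecut3, the third gene of the family, had 0 reads in MHs against 3 in SHs. Gm20649, annotated on the same strand as Onecut1 and overlapping it, had 0 reads in both libraries.

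Prox1 (chromosome 1, 190118035 to 190170714, minus strand) had 1196 reads in MHs against 2865 in SHs. The levels were 70.4 and 67.6 RPM, and the log2 ratio was -0.06 (-0.16 to 0.04). Prox1 is also the master regulator of lymphatic endothelium, and endothelial markers were lower in SHs. Of the 8 endothelial markers, 7 had reads in MHs and all 7 were lower in SHs, and their summed level was 62.3 RPM in MHs and 4.18 in SHs. Pdpn, which marks lymphatic endothelium, was at 0 in both libraries, and Lyve1 had 14 reads in MHs against 0 in SHs. Flt4, which encodes the receptor of lymphatic growth factors, had 137 reads in MHs against 15 in SHs. The part of these markers in the ratio of Prox1 was not tested. Prox1os, on the opposite strand across 419 bases of Prox1, had 47 reads in MHs against 102 in SHs (log2 ratio -0.21, -0.71 to 0.33). Gm28172, also on the opposite strand, had 0 and 7 reads. Prox2, the paralog of Prox1, had 17 and 70 reads, a log2 ratio of 0.69 whose interval of -0.06 to 1.58 included 0.

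By the interval alone, with no fold threshold, 5 of the 9 genes were under 0, namely Tbx3, Onecut2, Cebpb, Onecut1 and Foxa3, beside 15.5% of the genes with at least 10 reads and 18.0% of those with at least 400 reads. Cebpa was the 1 gene above 0, beside 16.8% and 25.5%. The calls of Onecut1 and Foxa3 depended on the scaling. By TMM and by the size factors of DESeq2, 4 genes were under 0, without Onecut1. Where the 10 most abundant genes were left out of the total, or where it was summed over protein-coding genes, 3 genes were under 0, namely Tbx3, Onecut2 and Cebpb. The median log2 ratio of the 9 genes was -0.14, beside 0.02 for all genes with at least 10 reads and 0.03 for those with at least 400 reads. The median was -0.10 without Tbx3, a choice made once the data had been seen.

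**Figure D4:**
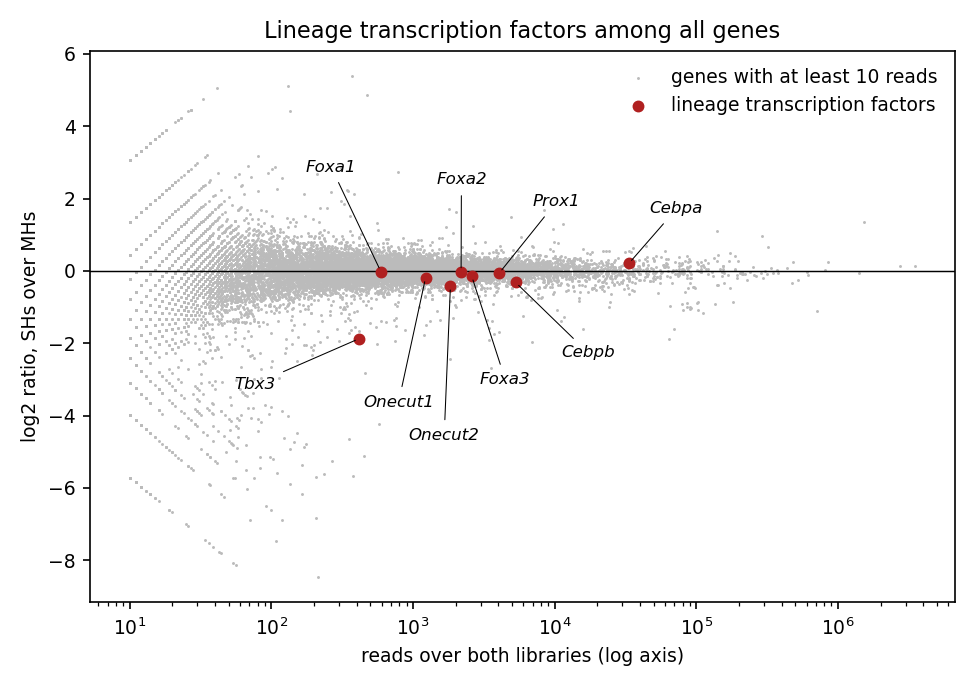
Log2 ratio of SHs over MHs against the reads over both libraries on a log axis, with a grey point for each of the 15521 genes with at least 10 reads and red points for the 9 lineage transcription factors. Tbx3, at -1.87, lies under the dense band of genes with like numbers of reads, whereas the other 8 red points lie between -0.41 and 0.21. Of the 7894 genes with at least 400 reads, 297 lie under Onecut2, 520 lie under Cebpb and 1441 lie above Cebpa.

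Other transcription factors and cofactors of the liver network were mostly close to 0. The list held 27 genes, and over the 23 that reached 10 reads the median log2 ratio was 0.02. Of the 23, 1 was at least 1.5-fold lower, namely Ddit3, and 0 were higher, beside 6.20% and 3.50% of all genes. The ratio of Ddit3 was just past the threshold and was not past it under the 4 other scalings. Hnf4a had 10753 reads in MHs against 27488 in SHs (log2 ratio 0.04, 0.0030 to 0.07). By quantitative PCR on repeated isolations, the paper describes more Hnf4a in SHs than in MHs. Within the 13 genes of the core network, the median log2 ratio was 0.03 and the lowest was -0.15 for Xbp1, a factor of the secretory pathway. Nr5a2, a partner of PROX1 at bile acid genes, had a log2 ratio of 0.32 (0.20 to 0.44). Xbp1 and Nr5a2 were singled out after their values were seen.

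Genes known as targets of these factors did not move in a shared direction. Over the 15 of 16 listed targets that reached 10 reads, the median log2 ratio was 0.02. By the 1.5-fold rule, 2 of the 15 were lower and 1 was higher, beside 6.20% and 3.50% of all genes. Cyp7a1, the rate-limiting enzyme of bile acid synthesis, had 453 reads in MHs against 296 in SHs (log2 ratio -1.93, -2.15 to -1.72). Fgf21, a fasting hormone, had 26 reads in MHs against 32 in SHs (log2 ratio -1.02, -1.81 to -0.21). Afp, which encodes a fetal relative of albumin, had 4 reads in MHs against 29 in SHs. Its log2 ratio was 1.39, with a wide interval of 0.03 to 3.51. The other 12 targets lay between -0.25 for Apob and 0.43 for Pck1, which encodes the first enzyme of gluconeogenesis. The lists share genes: Pck1 is also a listed ZONE1 marker, and Alb, Apoa1, Ttr and Serpina1a are also listed hepatocyte markers. Alb, whose upstream stretch with a FOXA and a C/EBP match is given with the sequences, had a log2 ratio of 0.13. Apob, Pck1 and Alb were likewise singled out after their values were seen.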

How the data were processed

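For each of the 2 samples, the authors deposited whole read counts per gene symbol, without normalization. The methods describe trimming, alignment to mm10 in CLC Genomics Workbench and RPKM values. The program and annotation behind the deposited counts are not given in the sources used here, so reads of paralogs and overlapping genes are uncertain.

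Samples were grouped by their titles. Counts were divided by the counted reads of the library, and log2 ratios were taken after 0.5 reads were added, using scipy 1.17.1, pandas 2.3.3 and numpy 2.4.6 (Python 3.11.15). Intervals of 95% were Clopper-Pearson for ratios, Poisson for levels and exact conditional for odds ratios. Medians and counts took genes whose reads in both libraries summed to 10 or more. The floor of 3 reads corresponded to 0.177 RPM (MHs) and 0.0708 RPM (SHs). Exon lengths and positions came from GENCODE M21 (mm10), and upstream sequences from RefSeq (GRCm38.p6). Adgre1 was found under its older symbol Emr1.

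The members and lists were chosen with earlier results of these data known. Named genes were the 9 members, Hnf4a, genes overlapping a member, and listed genes past 1.5-fold, at most 5 per direction. The rule does not cover family relatives, marker genes and the few others named, which were picked with their values known. Some listed genes entered counts, sums and medians but are not reported here by name. Marker lists were those of hepatocytes, cholangiocytes, endothelial, stellate and leukocyte cells, both zones and immediate-early genes. Alternatives were scaling by edgeR's TMM (4.0.16, R 4.3.3), by DESeq2's size factors (1.42.0), by a total that left out the 10 most abundant genes and by protein-coding genes, 2 added reads, other read minimums and folds, and the longest transcript. The calculation was tested on simulated Poisson counts, which held no spread between mice or preparations.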

Additional observations from a re-analysis of the deposited data

How the results depend on the processing

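No paired analysis was possible because MHs and SHs had 1 library each, and for the same reason no library could be left out. The log2 ratios of the 9 lineage transcription factors moved by less than their counting intervals under each of the 4 other scalings and with 2 added reads. Tbx3 stayed between -1.87 and -1.84, Cebpa between 0.21 and 0.24, Cebpb between -0.32 and -0.29 and Onecut2 between -0.41 and -0.38. The signs of Foxa1 and Foxa2 changed among the scalings, with values between -0.03 and 0.01 whose intervals included 0. The other scalings shifted all genes by 0.0091 to 0.0315 on the log2 scale. By the interval alone, 5 of the 9 genes were lower and 1 was higher, beside 15.5% and 16.8% of the genes with at least 10 reads. The number that were lower was 4 by TMM and by DESeq2's size factors. It was 3 where the 10 most abundant genes were left out of the total or protein-coding genes were summed. Among the other liver transcription factors, the number at least 1.5-fold lower was 0 in place of 1 under all 4 other scalings, since Ddit3 lay at the threshold. The median of the targets was 0.052 where the 10 most abundant genes were left out of the total and 0.043 where it was summed over protein-coding genes. With at least 100 reads, 1 target was lower and 0 were higher, since Fgf21 and Afp had fewer reads. Shares within a family depend on exon length: without it, Onecut1 made up 37.5% of its pair in MHs and 41.3% in SHs. The depth limits Tbx3 and Foxa1 most, with the fewest reads of the 9 genes.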

Other observations

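Markers of bile duct cells were few in both libraries, apart from genes that hepatocytes near the ducts can also express. Krt7 and Krt19, the defining keratins of cholangiocytes, had 1 read each in MHs and 1 each in SHs, Epcam had 6 and 1, and Cftr had 1 and 0. Sox9, a partner of the ONECUT factors in bile duct formation, had 92 reads in MHs against 325 in SHs (log2 ratio 0.50, 95% interval 0.16 to 0.85). It was higher in SHs by the interval, whereas Onecut1 and Onecut2 were at -0.19 and -0.41. Spp1, which encodes osteopontin, had 136 and 271 reads, a log2 ratio of -0.33 (-0.63 to -0.02). Which cells the reads of Sox9 and Spp1 came from was not tested.

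Stellate cell markers summed to 20.1 RPM in MHs and 4.75 in SHs, and of the 5 that reached 10 reads, 4 were past 1.5-fold toward lower levels. Among the cofactors, Zfpm1, which encodes the GATA partner FOG-1, had 530 and 1675 reads, a log2 ratio of 0.34 (0.20 to 0.48). Zfpm1 was chosen after its value was seen. With 1 library per group, these values have no replicate check.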
